A study of Mus musculus with 3 samples.

Results

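The surface epidermis spots of healing mouse skin were 262 of the 1748 tissue spots compared here, 78 of 520 on Day 3, 81 of 539 on Day 7 and 103 of 689 on Day 14 after wounding. They were selected on measured values: in every section, a spot marked in the deposited positions list as lying under tissue and holding at least 500 unique molecular identifiers (UMIs, each standing for 1 captured RNA molecule) was scored by the share of its UMIs that came from *Krt1*, *Krt10*, *Krtdap*, *Sbsn*, *Dmkn*, *Lor*, *Lgals7* and *Krt77*, and the top 15% by this score were taken. The remaining 442, 458 and 586 spots of the same sections are called the other spots. More spots with 500 UMIs were unmarked than marked on every slide (674, 2118 and 1780 against 520, 539 and 689), so that both groups rest on a mark whose accuracy was not tested. Because the score chose the spots, the levels of these 8 genes are not a finding, and genes that travel with them had to be higher in the chosen spots, so that contrast is given as a description with no test.

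Adult male C57BL/6J mice received full-thickness punch wounds in the skin of the back, and fresh frozen wound skin taken 3, 7 and 14 days later was profiled on the Visium platform, which counts polyadenylated RNA on an array of barcoded spots, each covering several cells. Each day was represented by 1 section, so differences between days cannot be told apart from differences between animals, sections or slides, and the spots of a section are not replicates. The 3 slides list the same 4992 spot barcodes, which are fixed by the slide design. No unwounded control section was analysed here, and a section held wound, neighbouring skin and the muscle beneath it. Levels are counts per 1000000 UMIs (CPM) of spots pooled within a section, with the 8 score genes left out of the total, ratios are on the log2 scale, and every interval is an exact 95% interval for counting error alone. In pooled spots, fewer cells of a type and less RNA per cell cannot be told apart.

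The epidermis is built from a basal layer of dividing keratinocytes, held to the basement membrane by hemidesmosomes, and from suprabasal layers whose cells switch to *Krt1* and *Krt10*, fill with filaggrin in the granular layer and end as cornified envelopes. When skin is cut, keratinocytes at the margin switch on *Krt6a*, *Krt6b*, *Krt16* and *Krt17*, loosen their desmosomes and move over the wound bed. Once the gap is closed, the stratified programme and the barrier are rebuilt.

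The strength of the score differed between the sections. The share of UMIs from the score genes had a median of 0.939%, 0.676% and 1.70% in the chosen spots of Day 3, Day 7 and Day 14, with a highest value of 6.57%, 4.21% and 7.57%, against 0.185%, 0.274% and 0.603% in the median other spot. No gap separated the groups: the last spot inside and the next spot outside had shares of 0.646147% and 0.646039% on Day 3, 0.519849% and 0.519843% on Day 7, and 0.966851% and 0.966675% on Day 14. Of the score genes, *Krt10*, the partner keratin of *Krt1* in suprabasal cells, had 1533, 1217 and 4377 CPM of all genes in the chosen spots. *Lor*, loricrin, the main protein of the cornified envelope, had 2711, 1548 and 4236.

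The promoters of several of these genes hold the same short element. Those printed here belong to the score gene *Krtdap* and to genes with levels in this report, and each holds this element. The promoters of the score genes *Sbsn* and *Dmkn* also held it within 120 bases and are not printed. The promoters of *Krt10*, *Lgals7*, *Krt77*, *Calm4*, *Krt5* and *Krt14* held none over the same 120 bases and are not printed. The sequences are the 120 bases before the RefSeq start site on the gene's own strand (GRCm38.p6), with matches to TGANTCA, a form of the AP-1 element that reads the same on both strands, in capitals. *Krtdap* lies at chr7:30787785-30787904 (+), *Lor* at chr3:92083143-92083262 (-), *Flg* at chr3:93273426-93273545 (+), *Flg2* at chr3:93197153-93197272 (+), *Sprr1a* at chr3:92485882-92486001 (-) and *Sprr1b* at chr3:92438780-92438899 (-).
Krtdap: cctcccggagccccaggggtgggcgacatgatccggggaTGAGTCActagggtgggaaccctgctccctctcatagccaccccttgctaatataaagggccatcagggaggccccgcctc
Lor: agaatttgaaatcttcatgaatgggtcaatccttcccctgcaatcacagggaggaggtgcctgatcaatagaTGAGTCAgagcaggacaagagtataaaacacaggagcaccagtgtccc
Flg: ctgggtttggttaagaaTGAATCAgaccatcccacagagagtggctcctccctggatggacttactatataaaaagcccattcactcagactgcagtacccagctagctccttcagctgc
Flg2: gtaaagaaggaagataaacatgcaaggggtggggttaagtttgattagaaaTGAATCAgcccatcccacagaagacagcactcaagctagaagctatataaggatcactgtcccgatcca
Sprr1a: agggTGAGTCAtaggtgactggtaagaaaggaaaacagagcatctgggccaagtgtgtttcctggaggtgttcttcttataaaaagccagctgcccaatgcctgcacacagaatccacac
Sprr1b: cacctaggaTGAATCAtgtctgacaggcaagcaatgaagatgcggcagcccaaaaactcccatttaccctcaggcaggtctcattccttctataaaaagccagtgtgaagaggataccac
The match began 48 bases before the start in *Lor*, 69 in *Flg2*, 81 in *Krtdap*, 103 in *Flg*, 111 in *Sprr1b* and 116 in *Sprr1a*.

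Over the 250 bases before the start, 2113 of 27025 genes with an entry held a match (7.82%). Of the score genes, 4 of the 7 with an entry did (*Krtdap*, *Sbsn*, *Dmkn* and *Lor*), and *Krt10*, *Lgals7* and *Krt77* did not. Among the small proline-rich genes, which encode cross-linked envelope proteins made by stressed and wounded epidermis, 9 of 14 held it. Among the granular layer and cornification genes, 4 of 27 did (14.8%). Other lists held it too: 4 of 9 wound-activated genes (44.4%), 5 of 16 epidermal protease inhibitors (31.25%) and 3 of 11 inner root sheath genes (27.3%). None of the 20 late cornified envelope genes and none of the 8 basal layer genes with an entry had these letters in this window. The 16 cell cycle and 11 sebaceous gland genes with an entry had none either. A match is a string of letters and not a measured binding site, and the motif was chosen with the expression values in view.

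On the slide most of the chosen spots formed a strip along 1 edge of the area marked as tissue, and all chosen spots of a section are called its strip below. It lay at low array rows on Day 3 and Day 7 and at high array rows on Day 14. Within 2 array rows of that edge lay 56 of 78 (71.8%), 49 of 81 (60.5%) and 84 of 103 (81.6%) of the chosen spots, against 13.8%, 9.61% and 6.31% of the other spots. The largest group of touching spots held 48, 35 and 74 of them, and the chosen spots fell into 12, 24 and 14 such groups, some as far as 9, 17 and 11 rows from the edge. The edge was defined after the spots were seen, so these shares describe the layout and test nothing.

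**Figure D1:**
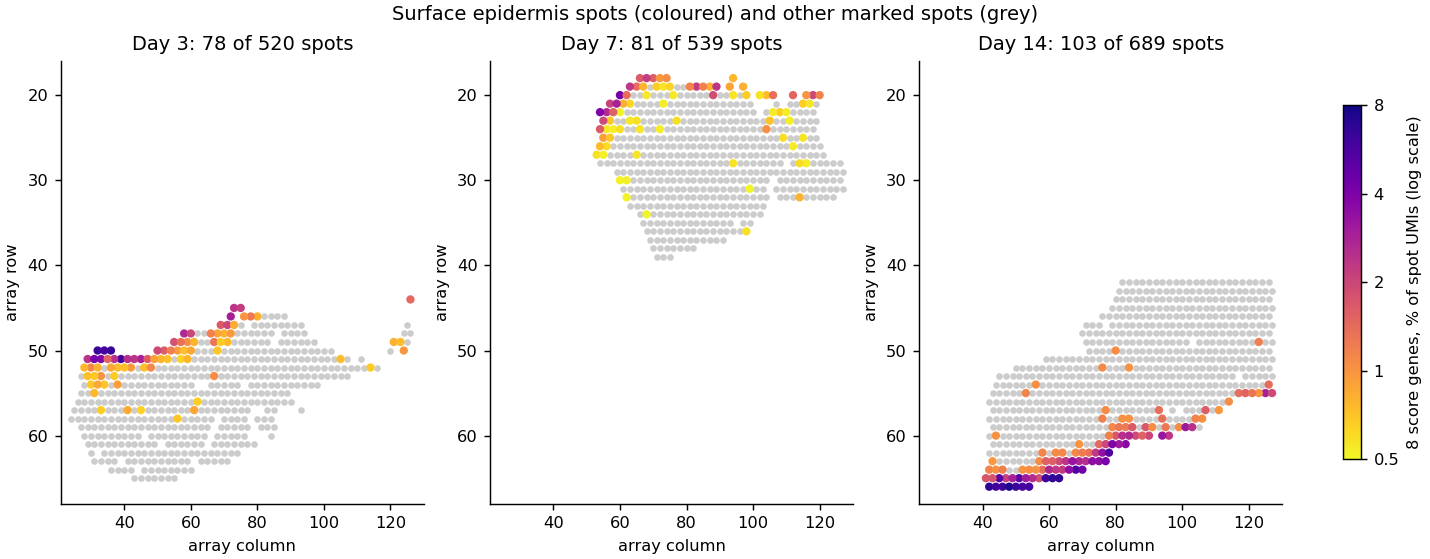
Array row against array column (position on the slide, in array units) for every spot compared, by day; coloured spots are the chosen spots, with colour giving the share of UMIs from the 8 score genes on a log scale, and grey spots are the others. Of the 78, 81 and 103 coloured spots, 56, 49 and 84 lie within 2 rows of 1 edge of the area marked as tissue, and on Day 3 only 7 lie at array column 80 and above.

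The 22, 32 and 19 deeper spots had a median score of 0.758%, 0.570% and 1.08%, below the 1.18%, 1.02% and 2.06% of the edge spots. The late cornified envelope genes together had 2708, 3191 and 6966 CPM in the edge spots and 507, 921 and 1583 CPM in the deeper spots. The granular layer genes had 6596, 4903 and 11194 CPM against 2779, 1784 and 4163 CPM. Sebaceous gland genes on Day 14 went the other way, with 3694 CPM at the edge and 6769 CPM deeper, as did the inner root sheath genes of the growing hair, with 3465 and 5020.0 CPM. The sebaceous gland genes also did on Day 7 (4957 and 5913 CPM) but not on Day 3 (10034 and 9495 CPM). Wound-activated genes had 4145, 2640 and 1828 CPM at the edge and 2942, 2499 and 2828 CPM deeper on the 3 days.

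Keratinocyte genes outside the score were checked against the label. The basal layer list, which holds *Krt5*, *Krt14*, the hemidesmosome collagen *Col17a1* and the integrins that anchor basal cells, summed to 12361, 8170.2 and 13284 CPM in the chosen spots and 3744, 3522 and 5886 CPM in the other spots. *Krt14*, the basal keratin, had 5522, 2408 and 4247 CPM against 1364, 761 and 1653 CPM. Its median over single chosen spots was 3854 (range 559 to 34969.9), 1687 (0 to 6522) and 3259 (0 to 11449.9) CPM, and on every day this range overlapped that of the other spots, which reached 13715, 4355 and 6679 CPM. Basal layer genes were thus measured in the strip together with the suprabasal genes that chose it.

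Other tissue was measured in the same spots. The 10 skeletal muscle genes summed to 19681, 60868 and 41569.8 CPM in the chosen spots and 50202, 54259 and 68906 CPM in the other spots, and *Acta1*, skeletal muscle actin, had a UMI in all 78, 81 and 103 chosen spots, with a lowest value of 1493, 7339 and 4260.4 CPM. The 10 matrix fibroblast genes, led by *Col1a1*, summed to 72560.2, 65309.9 and 39149 CPM against 50997, 84152 and 42227 CPM. Muscle RNA was thus counted in every chosen spot, and the part of these tissues in the results below was not tested. Depth moved with the grouping on Day 3, when the chosen spots had a median of 7087.5 UMIs and the other spots 1788.5, against 5350 and 7303 on Day 7 and 7531 and 4545.5 on Day 14.

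Each strip was set against the other spots of its own section. A gene was called when it had at least 50 UMIs over both groups and a ratio of at least 2-fold. On Day 3, 503 of 5629 genes were called higher (8.94%) and 431 lower (7.66%). On Day 7, 349 of 9414 were higher (3.71%) and 320 lower (3.4%), and on Day 14, 345 of 10021 were higher (3.44%) and 291 lower (2.9%). The median ratio of all genes tested was 0.04, 0.03 and 0.01. These shares come from the contrast that the score used and are given as background only. With edgeR's TMM factors in place of plain totals, more genes were called lower than higher on every day. The split was 404 higher and 587 lower on Day 3 and 280 higher and 411 lower on Day 7. On Day 14 it was 293 higher and 366 lower, and 319 and 328 with DESeq2 size factors.

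The late cornified envelope genes, a cluster of small proteins laid down on the inside of the envelope in the outermost living cells, were higher in the strip of every section. Of the 21 listed, 8 of 8 with 50 UMIs were called higher on Day 3 (median ratio 3.27), 15 of 16 on Day 7 (2.26) and 15 of 15 on Day 14 (2.21), and none was called lower. *Lce1m* had 631, 371 and 1990.3 CPM in the chosen spots and 71.9, 69.7 and 392 CPM in the other spots. Members of this family have closely similar sequences, so the split of UMIs between them is uncertain.

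Of the granular layer and cornification genes, 14 of 14, 18 of 19 and 19 of 26 were called higher on the 3 days and none lower (medians 2.42, 1.76 and 1.70). *Flg*, filaggrin, which bundles keratins in the granular layer and is later broken down to moisturising factors, had ratios of 2.33, 2.08 and 3.61. *Calm4*, a calcium-binding protein of the suprabasal epidermis, had ratios of 2.33, 2.08 and 3.23, and *Casp14*, the protease that takes part in filaggrin processing, 2.08, 1.76 and 2.10. *Klk7*, a protease that sheds the outermost cells, had 2.99, 2.45 and 1.68, and its inhibitor *Spink5* 1.89, 1.66 and 1.72. On Day 14 the single chosen spots ranged from 0 to 20153 CPM of *Flg* (median 344), and the other spots from 0 to 2996 CPM (median 0).

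Of the desmosome genes, which rivet keratinocytes to each other, 10 of 10 were called higher on Day 3, 10 of 11 on Day 7 and 3 of 11 on Day 14 (medians 2.50, 1.53 and 0.86), with no test of how the days differed. *Dsp*, desmoplakin, which ties desmosomes to keratin filaments, had ratios of 2.65, 1.35 and 0.86, while its level in the other spots was 234, 109 and 613 CPM. *Perp*, a membrane protein of desmosomes, had ratios of 2.44, 1.39 and 0.94. Barrier lipid genes, which make the ceramides and very long chain fatty acids between cornified cells, were called higher in 6 of 11, 9 of 16 and 7 of 20 cases. *Elovl4*, which elongates those fatty acids, had 2849, 731 and 1314 CPM in the chosen spots.

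Among transcription factors of epidermal fate, 9 of 14 were called higher on Day 3, 5 of 17 on Day 7 and 4 of 23 on Day 14 (medians 1.72, 0.62 and 0.30). *Trp63*, p63, the master regulator of stratified epithelia, had 168, 70.8 and 198 CPM against 37.6, 31.5 and 125 CPM. *Grhl1*, which regulates desmosomal genes, had ratios of 3.47, 1.14 and 0.32, and *Gata3*, which takes part in barrier formation, 3.17, 1.52 and 0.59. Their levels in the other spots were higher on Day 14 (112 and 205 CPM) than on Day 3 (8.17 and 21.2 CPM). Of 6, 17 and 17 cell cycle genes with 50 UMIs, none was called in either direction. Of all genes, 8.94%, 3.71% and 3.44% were called higher and 7.66%, 3.4% and 2.9% lower. With so few cell cycle genes, the lack of calls is near those shares. *Mki67*, the proliferation marker, had 61.7, 36.3 and 90.5 CPM in the chosen spots and 44.1, 36.7 and 134 CPM in the other spots.

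Of the 5514 genes with 50 UMIs in all 3 contrasts, 73 were called higher in every section and 5 lower in every section. The 73 were 15.2% of those called higher on Day 3, 38.6% of those on Day 7 and 56.6% of those on Day 14. Ranked by their smallest ratio, they were led by *Kprp*, a keratinocyte proline-rich protein (2.79), *Flg2* (2.54), *Lce1a1* (2.49) and *Lce1a2* (2.45). Of the 51 with a promoter entry, 11 held TGANTCA (21.6%).

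The genes at the head of the ranking in each section were shared in part. *Flg2*, *Lce1a1*, *Lce1a2* and *Lce1m* were among the first 8 on both Day 3 and Day 7. *Clca3a2* was among them on Day 3 and Day 14. On Day 3 they included *Krt23*, a keratin gene, with 46 UMIs in the chosen spots and 4 in the others (ratio 4.76 (95% interval 3.31 to 6.70)), *Defb8*, a beta-defensin, at 3.76 (95% interval 3.05 to 4.55), *Clca3a2* at 3.56 (95% interval 2.97 to 4.20) and *Dsc3*, a desmosomal cadherin, at 3.22 (95% interval 2.81 to 3.65). On Day 7, *Kprp* led at 3.16 (95% interval 2.79 to 3.52), followed by *Lce1c* at 2.66 (95% interval 2.30 to 3.02) and, after *Lce1a1*, by *Bpifc* at 3.01 (95% interval 2.17 to 3.86). On Day 14, *Flg* led at 3.61 (95% interval 3.38 to 3.84), then *Calm4* at 3.23 (95% interval 3.11 to 3.34), with the cystatin-like protease inhibitors *Stfa3* at 3.6 (95% interval 3.10 to 4.12) and *Cstdc5* at 3.56 (95% interval 2.96 to 4.20) and the cytokine gene *Il1f9* at 3.27 (95% interval 2.59 to 3.99). *Defb8* rested on the choice of spots, with a ratio of 0.42 in the top 10% of spots and 0.74 with a score from 4 of the genes. The cystatin-like genes are near-identical copies of one another, and their separate counts are uncertain.

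Of the 10 muscle genes, 10 were called lower in the strip on Day 3, none on Day 7, when their sum was higher there, and 1 on Day 14, and none of the 10 matrix fibroblast genes was called in either direction on any day. Among genes lower in the strip, on Day 3 the ranking included *Prg4*, lubricin (-3.41 (95% interval -4.64 to -2.41)), *Fbxo40*, a muscle gene (-3.99 (95% interval -7.06 to -2.09)), *Sfrp2*, a secreted Wnt modulator of fibroblasts (-2.53 (95% interval -3.04 to -2.05)), *Cxcl5*, a neutrophil attractant (-2.65 (95% interval -3.33 to -2.05)), and *Saa3*, an acute-phase gene (-2.23 (95% interval -2.50 to -1.98)). On Day 14 it was headed by *Trdn*, a muscle triad protein (-2.78 (95% interval -3.31 to -2.31)), *Bc1* (-1.78 (95% interval -1.98 to -1.58)) and *Ccl5*, a T cell chemokine (-2.34 (95% interval -3.26 to -1.54)). On Day 7 it was headed by *Mmp14*, a membrane collagenase, with 11 UMIs against 499 (-2.60 (95% interval -3.62 to -1.75)), and *Prickle1*, with 1 against 106 UMIs (-3.83 (95% interval -9.15 to -1.32)), besides the ribosomal *Rpl41* at -1.43 (95% interval -1.57 to -1.29). Some of these ratios went below 2-fold under another setting: with the mean of spot CPM, *Cxcl5* had -0.97 and *Rpl41* -0.91, with spots thinned to 500 UMIs *Ccl5* had -0.63 and *Rpl41* -0.52, and with 1 score cutoff for all sections *Bc1* had -0.62.

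**Figure D2:**
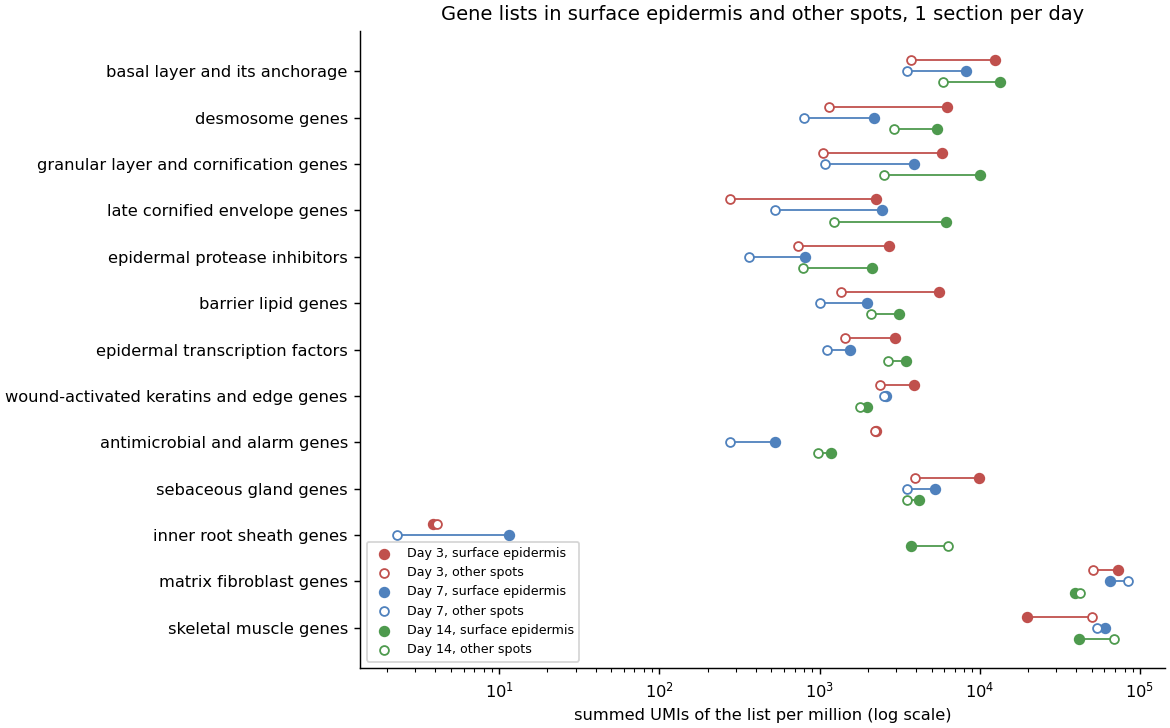
Summed CPM (log scale) of 13 gene lists in the pooled chosen spots (filled) and the other spots (open) of each day, joined by a line, from 1 section per day. The late cornified envelope list lies at 2239, 2456 and 6117 CPM in the chosen spots, to the right of the other spots on every day, whereas the inner root sheath list on Day 14 lies at 3710.2 CPM, to the left of the 6359.8 CPM of the other spots.

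Between the days, the strip itself was compared from section to section. From Day 3 to Day 7, 352 of 3934 genes were at least 2-fold higher (8.95%) and 430 at least 2-fold lower (10.9%). From Day 7 to Day 14, 569 of 5403 were higher (10.5%) and 343 lower (6.35%), and from Day 3 to Day 14, 578 of 5391 were higher (10.7%) and 408 lower (7.57%). With DESeq2 size factors the last split was 459 higher and 494 lower. The same 3 sections enter all of these contrasts, so they are not independent of one another. Many genes differed in the same direction in the other spots of these sections, and the ratio of the other spots is given beside that of the strip for several of them.

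Desmosome genes had their lowest levels in the Day 7 strip, where the median score was also lowest (0.676%, against 0.939% on Day 3 and 1.70% on Day 14). For these genes and the groups that follow, a smaller share of keratinocytes and less RNA per cell cannot be told apart. Of 10 desmosome genes, 6 were called lower on Day 7 than on Day 3 and none higher, and 9 of 10 were called higher on Day 14 than on Day 7 and none lower (medians -1.54 and 1.28, against -0.05 and 0.14 for all genes). In the other spots 1 of 10 was called lower and 11 of 12 higher in these contrasts. *Dsp* had 1464, 279 and 1117 CPM in the strip, a ratio of -2.39 (95% interval -2.66 to -2.13) from Day 3 to Day 7 and 2.0 (95% interval 1.75 to 2.26) from Day 7 to Day 14. *Dsc3* had 465, 86.1 and 280.3 CPM and *Jup*, plakoglobin, which links desmosomal cadherins to desmoplakin, 839, 291 and 714 CPM. In the other spots *Dsp* went the same way, with ratios of -1.10 and 2.49. From Day 3 to Day 14 none of 10 desmosome genes was called in either direction (median ratio -0.17, against 0.11 for all genes).

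Of the transcription factors, 7 of 14 were called lower on Day 7 than on Day 3 and 15 of 19 higher on Day 14 than on Day 7 (medians -0.99 and 1.66), against 2 of 16 and 19 of 22 in the other spots. *Klf4*, a driver of barrier formation, had 295, 70.8 and 265 CPM, and *Zfp750*, an effector of p63 in terminal differentiation, 55.9, 13.4 and 85.1 CPM. *Klf4* had a ratio of 1.90 (95% interval 1.40 to 2.44) from Day 7 to Day 14, and *Zfp750*, resting on 7 UMIs on Day 7, 2.67 (95% interval 1.56 to 4.03). The gap junction gene *Gjb2*, connexin 26, had 158, 49.7 and 144 CPM.

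Protease inhibitors and defence genes were lower in the Day 7 strip than in the Day 3 strip. Of 8 epidermal protease inhibitors, 7 were called lower on Day 7 than on Day 3, and 6 of 8 were higher on Day 14 than on Day 7 (medians -1.47 and 1.40), against 5 of 11 lower and 4 of 9 higher in the other spots. Of 10 antimicrobial and alarm genes, 7 were called lower on Day 7 than on Day 3 and none higher (median -1.51), as were 6 of 10 in the other spots. *Cstdc5* had 752, 89.9 and 100.3 CPM, whereas *Cst6*, cystatin M/E, a protease inhibitor, had 773, 266 and 864 CPM. *S100a8* and *S100a9*, the partners in calprotectin made by neutrophils and by stressed keratinocytes, had 511, 13.4 and 14.2 CPM and 735, 32.5 and 12 CPM. Their ratios from Day 3 to Day 7 were -5.25 (95% interval -6.58 to -4.19) and -4.50 (95% interval -5.29 to -3.80) in the strip and -5.65 and -5.85 in the other spots, so the direction was shared by both parts of the section. *Slpi*, a secreted inhibitor of leukocyte elastase, had 169.7, 26.8 and 3.27 CPM.

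Cytokine and myeloid genes headed the list of genes lower on Day 7. *Cxcl2*, a neutrophil chemokine, had 302 UMIs in the Day 3 strip and 0 in the Day 7 strip. Against a floor of 3 counts over the group it was 101-fold lower, and the upper end of its 95% interval was -6.36. *Il1b*, the cytokine interleukin-1 beta, had 129 UMIs on Day 3 and 1 on Day 7 (ratio -7.02 (95% interval -12.34 to -4.52)), and *Cd14*, the monocyte receptor for bacterial lipopolysaccharide, 142 and 2 (-6.16 (95% interval -9.22 to -4.28)). In the other spots the ratios of *Cxcl2*, *Il1b* and *Cd14* were -11.40, -6.32 and -4.57. The macrophage list summed to 3477, 1877 and 828 CPM in the strip, and the neutrophil list to 590.2, 139.6 and 123 CPM.

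Genes higher in the Day 7 strip than in the Day 3 strip included matrix genes of fibroblasts. *Postn*, periostin, a matrix protein of activated fibroblasts, had 77 UMIs on Day 3 and 1225 on Day 7 (ratio 3.98 (95% interval 3.65 to 4.33), other spots 3.79). *Tnn*, tenascin-N, had 2 and 143 UMIs (6.15 (95% interval 4.27 to 9.21), other spots 5.83), and *Col12a1*, a collagen that coats fibrils, 27 and 367 (3.75 (95% interval 3.19 to 4.37), other spots 3.30). *Tnc*, tenascin-C, had 116, 999 and 154 CPM over the 3 days in the strip and 158, 1200.0 and 161 CPM in the other spots. *Actc1*, cardiac actin, which regenerating muscle and myofibroblasts can make, headed the ranking at 7.61 (95% interval 5.75 to 10.66) (other spots 5.35), with 2 and 394 UMIs. *Ucp1*, the uncoupling protein of brown fat, had no UMI in the Day 3 strip, 78 on Day 7 and 2 on Day 14, and the fat gene list stood at 2536, 8603 and 1064 CPM.

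Cornification genes had their highest summed levels in the Day 14 strip. Of 23 granular layer genes, 17 were called higher on Day 14 than on Day 7 and 1 lower, and of 16 late cornified envelope genes, 11 higher and 1 lower (medians 1.3 and 1.12). The other spots differed in the same direction, with 16 of 26 granular layer genes higher and 1 lower and 9 of 17 late cornified envelope genes higher and 2 lower (medians 1.26 and 1.0). *Flg* had 94.5, 222 and 717 CPM in the strip and 18.8, 52.5 and 58.7 CPM in the other spots, with a ratio of 2.92 (95% interval 2.50 to 3.37) from Day 3 to Day 14. *Hrnr*, hornerin, a relative of filaggrin, had 59.8, 107 and 323 CPM, and *Flg2* 311, 161 and 706 CPM, with 14.7, 32.0 and 50.5 CPM and 29.4, 27.7 and 120.4 CPM in the other spots. The score chose these spots by suprabasal genes, and its median was also highest on Day 14, so a larger share of differentiated cells in the chosen spots and more RNA of these genes in each cell cannot be told apart.

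A few envelope genes ran against this course. *Rptn*, repetin, another relative of filaggrin, had 63.6, 105 and 24 CPM, with a ratio of -2.13 (95% interval -2.92 to -1.40) from Day 7 to Day 14 and -1.86 in the other spots. *Lce3c*, of a branch of the late envelope genes that is known to answer barrier damage, had 30.9, 109 and 2.18 CPM and a ratio of -5.64 (95% interval -8.72 to -3.72), against -4.96 in the other spots, whereas *Lce1c* had 118, 231 and 522 CPM. *Sprr1b* had 114, 84.2 and 6.54 CPM (59, 44 and 6 UMIs), and *Sprr1a* 322, 138 and 299 CPM. On Day 14 the other spots had 1.65 CPM of *Sprr1b* and 327 CPM of *Sprr1a*.

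The wound-activated keratins differed from one another by Day 14. Of 14 genes of the wound-activated list, 2 were called higher on Day 14 than on Day 3 and 8 lower (median -1.11), and in the other spots 2 and 8 of 15 were. *Krt6b* had 367, 37 and 2 UMIs in the strip (708, 70.8 and 2.18 CPM), a ratio of -8.34 (95% interval -11.39 to -6.48) from Day 3 to Day 14, against -9.94 in the other spots. *Krt16* had 1084, 318 and 51.3 CPM, and its ratio from Day 3 to Day 14 was -4.40 (95% interval -4.86 to -3.97), against -3.81 in the other spots. *Krt6a* had 837, 222 and 267 CPM, with a ratio of -1.65 (95% interval -1.88 to -1.42) from Day 3 to Day 14, against -0.53 in the other spots. *Krt17* had 345, 172 and 906 CPM, with 132, 96.1 and 861 CPM in the other spots, and *Krt75*, its companion in the hair follicle, 17.4, 7.65 and 128 CPM. *Krt6a*, *Krt17* and *Krt75* are also made by follicle sheath cells in unwounded skin. *Krt6a* and *Krt6b* are near-identical copies, and the division of UMIs between them is uncertain.

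**Figure D3:**
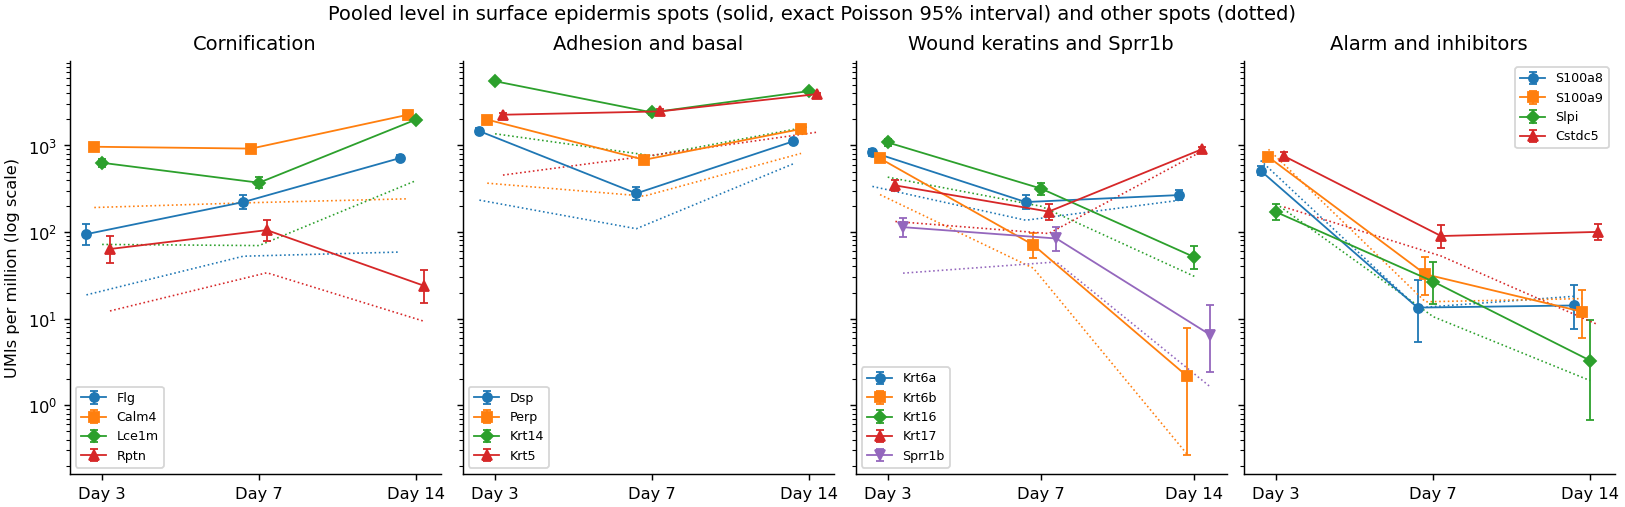
Pooled CPM (log scale) of 17 genes in the chosen spots of each day (solid lines and markers, bars are exact Poisson 95% intervals for counting error) and in the other spots (dotted lines), from 1 section per day. Between Day 3 and Day 14, *Krt6b* lies at 708 and 2.18 CPM, *S100a8* at 511 and 14.2 CPM and *Flg* at 94.5 and 717 CPM, and *Dsp* is lowest on Day 7.

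Inner root sheath and hair shaft genes were present in the Day 14 strip and low or absent before. The outer root sheath and bulge list, also of the hair follicle, was measured on all days. It had 1311, 574 and 981 CPM in the edge spots of Day 3, Day 7 and Day 14 and 1086, 608 and 1660 CPM in the deeper spots. *Krt71*, *Krt25* and *Krt27*, keratins of the inner root sheath that guides the growing hair, had 909, 572 and 497 UMIs on Day 14 and none on Day 7. Against a floor of 3 counts over the group they were 173-fold, 109-fold and 94.4-fold higher. The lower ends of their 95% intervals were 7.13, 6.46 and 6.26 on the log2 scale. *Tchh*, trichohyalin, which hardens that sheath, had 1, 3 and 500 UMIs, and *Krt35*, a keratin of the hair shaft, none on the earlier days and 205 on Day 14. The other spots of Day 14 had more of them, 1636 CPM of *Krt71* against 991 in the strip, and *Krt71* had a UMI in 102 of 103 chosen spots and 501 of 586 other spots, or 45.6% and 36.7% once each spot was thinned to 500 UMIs. Melanocyte genes stood at 75.2, 63.1 and 392 CPM, with *Pmel*, a protein of pigment granules, at 15.4, 15.3 and 123 CPM. Sebaceous gland genes took the opposite course, with 9919, 5266 and 4179 CPM, and 11 of 14 were called lower on Day 14 than on Day 3, against 2 of 15 in the other spots. *Elovl3*, a fatty acid elongase of sebocytes, had 474, 76.5 and 94.9 CPM.

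The strip was not uniform along its length, and on Day 3 the difference was large. The Day 3 strip lay mainly in array columns 20 to 79, while columns 80 to 119 held 3 chosen and 115 other spots. The 22 chosen spots in columns 60 to 79 were set against the 49 in columns 20 to 59. The 7 chosen spots at column 80 and above entered neither side and held 8176 UMIs in all, with a median of 1171. This division was made after the keratin values were seen and serves as a description. The stretches had a median of 7290.5 and 7942 UMIs per spot and a median score of 0.984% and 0.956%, and 16 of 22 and 35 of 49 spots lay within 2 rows of the edge.

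Wound-activated genes were higher in the pooled spots of columns 60 to 79 than in those of columns 20 to 59. Of the 1824 genes with 50 UMIs over both stretches, 78 were at least 2-fold higher in columns 60 to 79 (4.28%) and 98 at least 2-fold lower (5.37%), and 5 of 6 genes of the wound-activated list were among the higher (median ratio 3.01, against 0.03 for all genes). *Krt6b* had 2064 CPM there and 160.0 CPM in columns 20 to 59 (ratio 3.69 (95% interval 3.28 to 4.12)). Over single spots its median was 749 (range 0 to 13977) against 99.5 CPM (0 to 1395), so the ranges overlapped at their lower ends. The stretch was itself uneven. The highest spots of *Krt6b* lay side by side at array rows 45 and 46 of columns 72 to 78 (4131 to 13977 CPM). Those of columns 60 to 62 had 0 to 554 CPM, within the range of columns 20 to 59. *Krt16* had 2913 against 331 CPM (3.14 (95% interval 2.84 to 3.44)), with a median of 1342 (139 to 12011) against 296 CPM (0 to 1294). *Krt6a* had a ratio of 3.50 (95% interval 3.14 to 3.88) and *Krt17* of 2.88 (95% interval 2.38 to 3.40). In the few spots beyond, *Krt16* had 6837 CPM (11 UMIs) in the 1 spot of columns 80 to 99, 509 (1 UMI) in the 2 of columns 100 to 119 and 3476 (16 UMIs) in the 4 from column 120 on, and *Krt6b* 3108, 509 and 2172 CPM. Levels as high as those of columns 60 to 79 were thus also found beyond them, on few counts. The basal keratins divided, with a ratio of 1.31 (95% interval 1.2 to 1.42) for *Krt14* and -0.32 (95% interval -0.52 to -0.12) for *Krt5*.

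The highest ratio belonged to *Gjb2*, connexin 26, a gap junction protein, with 70 UMIs in columns 60 to 79 and 6 in columns 20 to 59 (4.93 (95% interval 3.73 to 6.42)). *Gjb2* had a UMI in 15 of 22 and 6 of 49 single spots, with a median of 148 (0 to 2839) against 0 CPM (0 to 280). Its highest values, 1458 to 2839 CPM, lay in the same spots of columns 72 to 78 as those of *Krt6b*. It was followed by *Sprr1a* at 3.79 (95% interval 3.17 to 4.47) and *Cstdc5* at 3.72 (95% interval 3.33 to 4.13), then, after *Krt6b* and *Krt6a*, by *Stfa1*, another cystatin-like gene, at 3.46 (95% interval 2.60 to 4.41) and the retinoic acid binding protein *Crabp1* at 3.36 (95% interval 2.73 to 4.02) and, lower down, by *Sprr1b* at 3.03 (95% interval 2.14 to 4.02). *Aqp3*, the glycerol and water channel of keratinocytes, had 2.45 (95% interval 1.89 to 3.03). Of 7 epidermal protease inhibitors, 5 were called higher, and of 6 antimicrobial genes 5.

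Some outer envelope genes and collagen were lower in columns 60 to 79. Of 5 late cornified envelope genes, 1 was called lower and none higher (median ratio -0.65), and of 11 granular layer genes 2 were called higher and 1 lower. *Flg2* had 9 UMIs against 152 (ratio -2.70 (95% interval -3.85 to -1.73)) and *Lce1m* 23 against 304 (-2.34 (95% interval -3.02 to -1.73)), and the median single spot held none of either in columns 60 to 79. *Defb8*, the second gene in the ranking of the whole Day 3 strip, had a ratio of -2.28 (95% interval -3.53 to -1.24). *Col1a1* had 11156 against 38742 CPM (-1.80 (95% interval -1.87 to -1.72)). Of 10 desmosome genes, none was called higher and 2 lower, with summed levels of 6059 and 6309 CPM, and none of 7 barrier lipid genes was called. Of the 10 matrix fibroblast genes 4 were called lower, and the list summed to 30788 and 89575 CPM. The promoters printed above fall on both sides of this division, with *Sprr1a* and *Sprr1b* higher and *Flg2* lower in columns 60 to 79.

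Other spots in the same columns were measured alongside. Among the 131 other spots of columns 60 to 79 and the 191 of columns 20 to 59, *Krt6a* had 512 and 117 CPM (ratio 2.13), *Krt16* 609 and 226 (1.43), *Krt6b* 326 and 181 (0.85) and *Gjb2* 109.5 and 17.5 (2.64). The direction was thus shared by spots outside the strip, with smaller ratios for each of these 4 genes.

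**Figure D4:**
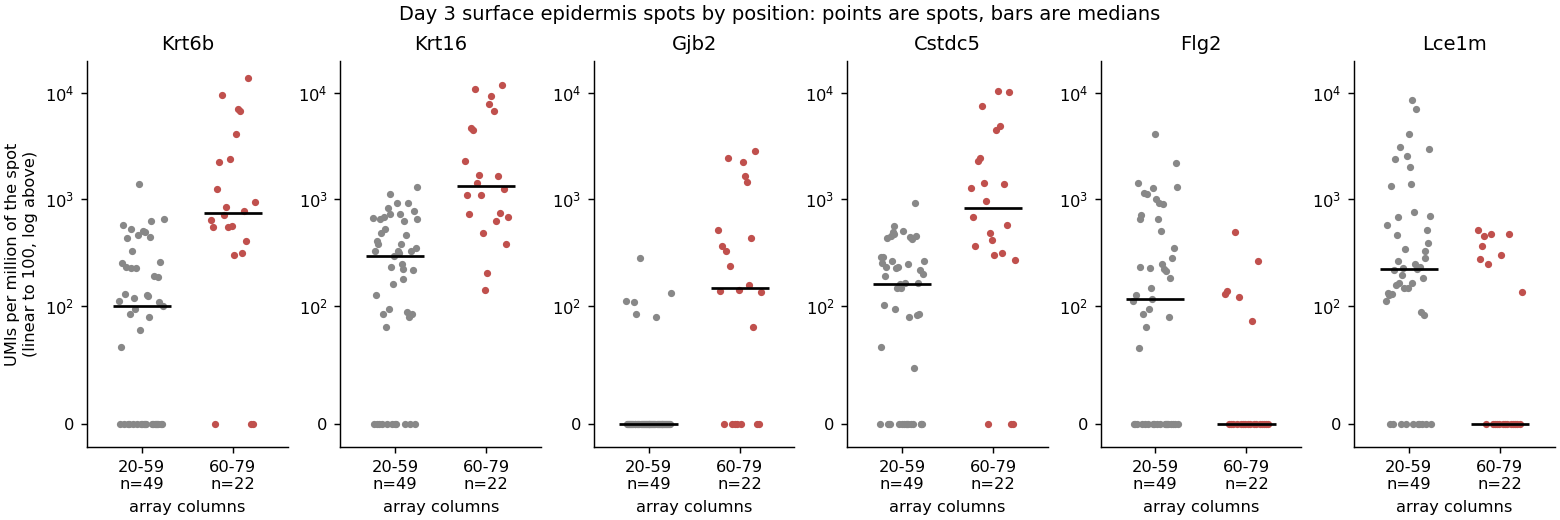
CPM of single Day 3 spots of the strip (linear to 100, log above) in array columns 20 to 59 (49 spots, grey) and 60 to 79 (22 spots, red) for 6 genes, with bars at the medians. *Krt6b*, *Krt16*, *Gjb2* and *Cstdc5* have their highest spots in columns 60 to 79, up to 13977 CPM for *Krt6b*, whereas *Flg2* and *Lce1m* have a median of 0 there.

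The same keratins were followed along the later strips. On Day 7, *Krt16* had 287, 213, 1084 and 332 CPM in columns 40 to 59, 60 to 79, 80 to 99 and 100 to 119, and *Krt6a* 144, 155, 862 and 236. The high value of both lay in the 14 spots of columns 80 to 99, which held 35983 UMIs in all, against 104476 to 244665 in the 3 bins beside them. *Krt6b* followed with 222 CPM there. On Day 14 *Krt16* had at most 177 CPM, in columns 80 to 99, and *Krt6a* stayed between 117 and 303 CPM.

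**Figure D5:**
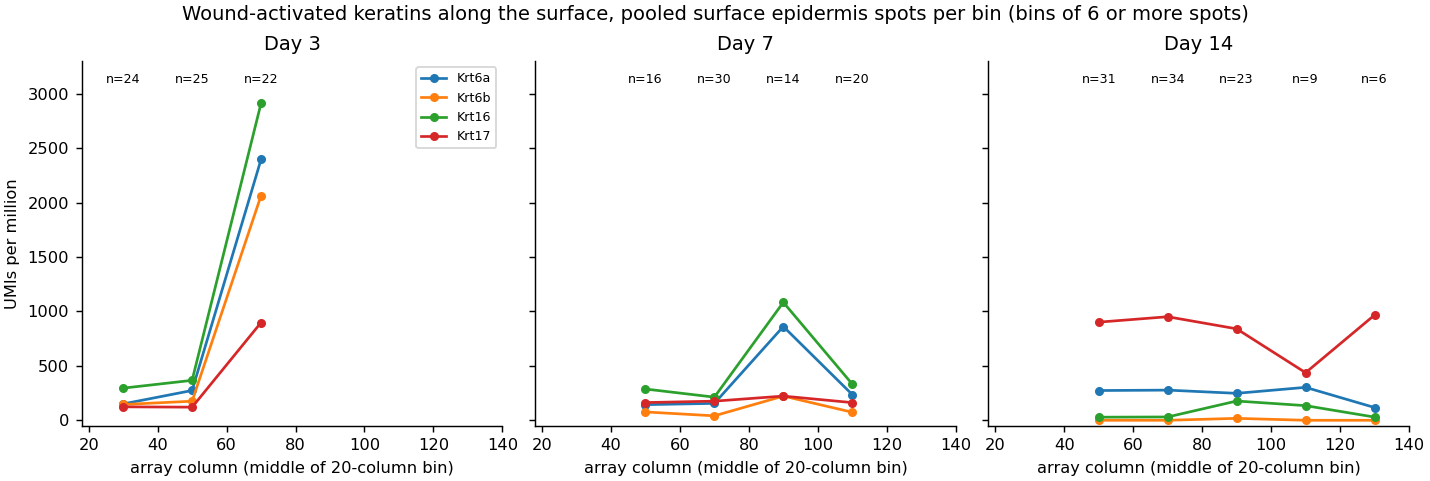
Pooled CPM of *Krt6a*, *Krt6b*, *Krt16* and *Krt17* in the chosen spots against array column, in bins of 20 columns that hold at least 6 chosen spots (n is the number of spots in a bin). Among these bins, on Day 3 all 4 genes are highest in the 22 spots of columns 60 to 79, on Day 7 *Krt6a* and *Krt16* are highest in the 14 spots of columns 80 to 99, and on Day 14 *Krt17* has the highest level of the 4 in every bin.

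Marker genes of cells that live among keratinocytes were measured too. Langerhans and antigen-presenting genes summed to 4592, 2462 and 2739.6 CPM in the strip and 4058, 2977 and 2878 CPM in the other spots, with *Cd74*, the invariant chain of antigen presentation, at 1819, 484 and 551 CPM. Epidermal T cell genes had 4 of 7 called higher in the strip on Day 14, where they summed to 363 against 245 CPM, while on Day 3 and Day 7 only 1 and 2 of the 10 genes reached 50 UMIs. Of the Notch pathway genes, which push basal cells to differentiate, 1 of 7, 1 of 7 and 1 of 8 were called higher, where 8.94%, 3.71% and 3.44% of all genes were, among them the ligand *Jag2* on Day 3 and Day 7 with ratios of 1.74 and 1.45. Of the EGF family, which drives keratinocyte growth and movement, 5 of 6 were called higher on Day 14 than on Day 7, as were 5 of 8 in the other spots, and *Btc*, betacellulin, had 52.1, 7.65 and 56.7 CPM.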

How the data were processed

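Visium libraries of 1 wounded skin section per day were processed by the authors with Space Ranger 1.3.0 against mm10, per the labels' processing notes, and deposited as raw UMI counts of 32285 genes in all 4992 spots of each slide. The study's cell or spot annotation was not used here. Counts of spots were summed per section and group with Python 3.11.15, numpy 2.4.6, scipy 1.17.1 and pandas 2.3.3, and divided by the total without the 8 score genes. The chosen spots held 527090, 528476 and 942437 UMIs. With 1 section per day no test was run: ratios carry exact conditional binomial intervals, levels exact Poisson intervals, and UMI counting error is all they cover. A gene at 0 in a group was given a ratio against a floor of 3 counts over that group. Genes named were the 8 highest and 8 lowest of each comparison ranked by whichever end of the interval lay closer to a ratio of 1, leaving out mitochondrial, predicted and score genes, plus genes of 28 lists (411 of 415 genes in the files). From the stretch of Day 3, genes were chosen after their values were seen. The members and lists were chosen with earlier results of these data known. Doublet calling does not apply to spots. Some genes that these rules would name are not reported here. Alternatives used edgeR 4.0.16 and DESeq2 1.42.0 for scaling factors alone, and the ratio script was tested on simulated data. Promoters are those of RefSeq on GRCm38.p6.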

Additional observations from a re-analysis of the deposited data

Results flagged for a closer look

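Spots that the positions list does not mark as lying under tissue were left out of every comparison, and many of them carried the epidermal score. Of the unmarked spots with at least 500 UMIs, 164 of 674 on Day 3, 701 of 2118 on Day 7 and 501 of 1780 on Day 14 had a score at or above the lowest score of the chosen spots of their section, which is a signal in data outside the main measurement. Their median depth was 630, 1234 and 1301 UMIs. Pooled, they held 13957, 8174 and 10435 CPM of the basal layer genes, 10493, 4859 and 7255 CPM of the granular layer genes and 5198, 2635 and 6049 CPM of the late cornified envelope genes. Skeletal muscle genes stood at 33918, 58505 and 49385 CPM in the same spots. Whether the tissue mark is right for these spots was not tested.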

How the results depend on the processing

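No paired analysis was possible because each day had 1 section, and for the same reason no section could be left out in turn. Of 186 counts of genes called under 16 alternative settings, 121 stayed within 1.5 times the count reported and 65 did not. With every spot thinned to 500 UMIs, the genes called were 52 higher and 143 lower against the other spots on Day 3, 24 higher and 39 lower against the other spots on Day 7, 49 higher and 106 lower against the other spots on Day 14, 26 higher and 19 lower on Day 7 against Day 3, 22 higher and 20 lower on Day 14 against Day 7, 31 higher and 20 lower on Day 14 against Day 3. With a gene minimum of 20 UMIs, the genes called were 1050 higher and 870 lower against the other spots on Day 3, 694 higher and 708 lower against the other spots on Day 7, 520 higher and 646 lower against the other spots on Day 14, 808 higher and 866 lower on Day 7 against Day 3, 1148 higher and 754 lower on Day 14 against Day 7, 1320 higher and 783 lower on Day 14 against Day 3. With a gene minimum of 200 UMIs, the genes called were 113 higher and 143 lower against the other spots on Day 3, 71 higher and 29 lower against the other spots on Day 7, 118 higher and 49 lower against the other spots on Day 14, 76 higher and 103 lower on Day 7 against Day 3, 106 higher and 87 lower on Day 14 against Day 7, 72 higher and 123 lower on Day 14 against Day 3. With no gene minimum, the genes called were 2974 higher and 3236 lower against the other spots on Day 3, 1875 higher and 3543 lower against the other spots on Day 7, 1487 higher and 3079 lower against the other spots on Day 14, 3090 higher and 3048 lower on Day 7 against Day 3, 3391 higher and 2367 lower on Day 14 against Day 7, 3840 higher and 2355 lower on Day 14 against Day 3. With 1 score cutoff of 0.646% for all sections, which took 78, 44 and 365 spots, the genes called were 596 higher and 730 lower against the other spots on Day 7, 117 lower against the other spots on Day 14, 220 higher on Day 7 against Day 3, 1235 higher on Day 14 against Day 7, 1438 higher on Day 14 against Day 3. With the mean of spot CPM, the genes called were 603 higher against the other spots on Day 7, 628 higher and 442 lower against the other spots on Day 14. With the top 10% of spots, the genes called were 603 lower against the other spots on Day 7, 539 lower against the other spots on Day 14, 208 higher and 273 lower on Day 7 against Day 3, 352 higher on Day 14 against Day 3. With the top 20% of spots, the genes called were 208 lower against the other spots on Day 7, 177 lower against the other spots on Day 14. With the edge spots alone, a setting added after seeing the data, the genes called were 517 lower against the other spots on Day 7. Fewer or more genes were tested by construction when the gene minimum or the depth was changed, and for the other settings the cause was not tested. TMM and DESeq2 factors shifted the median ratio of all genes on Day 3 by -0.16 and -0.13 against the other spots. For the 96 ratios of the 73 genes taken from the rankings, 12 settings gave 897 measured ratios. Of these, 887 were still at least 2-fold in the same direction and none changed sign. A further 249 values, for genes at 0 in a group, rest on the floor of 3 counts, and 6 could not be computed. These genes were picked as the most extreme of the same data, and most settings kept the same or overlapping spots. That most ratios stayed past 2-fold is therefore no test of them. The measured ratios that went below 2-fold included those of *Defb8* and *Cxcl5* on Day 3, *Rpl41* and *Ftl1* on Day 7 and *Bc1* and *Ccl5* on Day 14, all against the other spots. Limits of the material are that each day rests on 1 section, that intervals cover counting error only, and that genes with fewer than 50 UMIs over both groups were left out by the minimum.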
